A study of Mus musculus with 20 samples.

Results

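Sod1 and 9 further genes of the antioxidant system were followed in the RNA of whole mouse embryonic hearts at embryonic day 13.5 (E13.5). The 10 genes were Sod1, Sod2, Sod3, Cat, Gpx1, Gpx4, Prdx1, Prdx3, Txn1 and Nfe2l2, taken by gene symbol from a table of 48795 Ensembl genes, and all 10 were found. A gene was tested when its mean log2 value over the hearts was at least the log2 of 10 normalized counts. This held for 15304 genes of the table and for 9 of the 10, Sod3 being the exception. The hearts were on a C57BL/6J background and came from 10 WT embryos, 5 Dp1Tyb embryos and 5 Dp1TybDyrk1a+/+/- embryos. Dp1Tyb mice are a model of Down syndrome and carry an additional copy of the part of mouse chromosome 16 (Mmu16) that runs from Lipi to Zbtb21, duplicated on 1 of the homologues. Dp1TybDyrk1a+/+/- mice carry the same duplication with a null allele of Dyrk1a (tm1Mla) on the duplicated chromosome, so they have 2 functional copies of Dyrk1a and keep 3 copies of the other duplicated genes. The question asked of these groups is which RNA changes of Dp1Tyb hearts go with the additional copy of Dyrk1a, a protein kinase gene. Sod1 lies in the duplicated stretch and so has 3 copies in both mutant groups, whereas the other 9 genes lie on other chromosomes and have 2 copies in every group.

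Superoxide dismutases turn superoxide, a by-product of respiration, into hydrogen peroxide, with SOD1 in the cytosol, SOD2 in the mitochondrial matrix and SOD3 outside the cell. Catalase, the glutathione peroxidases and the peroxiredoxins then remove hydrogen peroxide, and thioredoxin returns oxidised peroxiredoxins to their active form. NRF2, the product of Nfe2l2, is the transcription factor that switches on many of these genes when its inhibitor KEAP1 is inactivated by oxidants, while BACH1 represses genes at the same DNA elements. The human SOD1 gene lies on chromosome 21 and is present in an extra copy in Down syndrome. RNA levels alone do not measure enzyme activity or oxidant levels.

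All values are the deposited log2 normalized counts, and a difference is a log2 fold change from limma with 1 mean per genotype over all 20 hearts. A gene was called when its Benjamini-Hochberg adjusted P-value over the 15304 genes was under 0.05. By their library names the hearts were sequenced in lanes 3, 6 and 7, with 4, 4 and 2 of the WT, 2, 2 and 1 of the Dp1Tyb and 1, 1 and 3 of the Dp1TybDyrk1a+/+/- hearts. At low expression the deposited values of a gene differ little between hearts, as a regularized log2 transformation gives, so fold changes may be understated. Read totals were not analysed here, and the depth of each library is unknown. Dyrk1a, the gene by which the mutants differ, ran from 11.28 to 11.43 in WT, from 11.65 to 11.75 in Dp1Tyb and from 11.70 to 11.85 in the hearts labelled Dp1TybDyrk1a+/+/-. Its log2 fold changes from WT were 0.32 (limma adjusted P-value 6.22e-08) and 0.39 (limma adjusted P-value 2.18e-09), and the mutants differed by -0.07 (limma adjusted P-value 0.209). The null allele lacks internal exons, as the study's methods give, whereas the deposited values count the gene as a whole. The total for this gene was no lower with the null allele, and such values do not check the labels. Cardiomyocyte markers were high in every heart, with a mean log2 value over 9 genes of 14.93 to 15.26 in WT. Of the markers of neighbouring tissues, 2 of 4 for liver (Alb and Afp), 3 of 4 for lung and foregut epithelium (Nkx2-1, Epcam and Krt8) and 2 of 3 for skeletal muscle (Myog and Acta1) passed the filter, whereas Apoa1, Ttr, Sftpc and Myod1 did not. Over the WT hearts the summed log2 level ran from 5.41 to 5.60 for liver, 8.07 to 9.02 for lung and foregut and 11.07 to 11.41 for skeletal muscle, beside 18.71 to 19.05 for cardiomyocytes. The mean log2 value over Myog and Acta1 was only 7.43 to 7.62 in WT, so 1 of them made up most of the skeletal muscle sum. Which cells the Acta1 RNA came from was not tested. Of 63 tested markers of 11 cell types, 0 were called by limma in any of the 3 comparisons, and 9 had an unadjusted P-value under 0.05 in Dp1Tyb versus WT, 3 in Dp1TybDyrk1a+/+/- versus WT and 6 between the mutant groups, that is 14.3%, 4.76% and 9.52% beside 15.6%, 9.64% and 18.5% of all genes. Xist, which is expressed in female cells, lay above its mean in 3 of 10 WT, 4 of 5 Dp1Tyb and 1 of 5 Dp1TybDyrk1a+/+/- hearts, so embryo sex, which the labels do not give, was uneven.

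A pair of hearts stood apart from the rest of their genotype. The SD of the departures from the genotype median over the 15304 genes was 0.221 in Dp1TybDyrk1a+/+/- replicate 2 (lane 7) and 0.142 in WT replicate 6 (lane 6), against 0.0484 to 0.102 in the other 18 hearts. The same hearts held the outlying values of 6 of the 10 genes. Over Gpx4, Prdx1, Prdx3 and Txn1 their mean departures were -0.37 and -0.14, whereas the other hearts lay between -0.07 and 0.04. Their Nfe2l2 values were 0.35 and 0.32 above the genotype median, and the other hearts were between -0.08 and 0.10. Each result is therefore given with these hearts, and where a call or a direction changed, also without them. Leaving both out raised the share of all genes called from 3.08% to 7.70% in Dp1Tyb versus WT and from 0.712% to 1.39% in Dp1TybDyrk1a+/+/- versus WT.

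**Figure D1:**
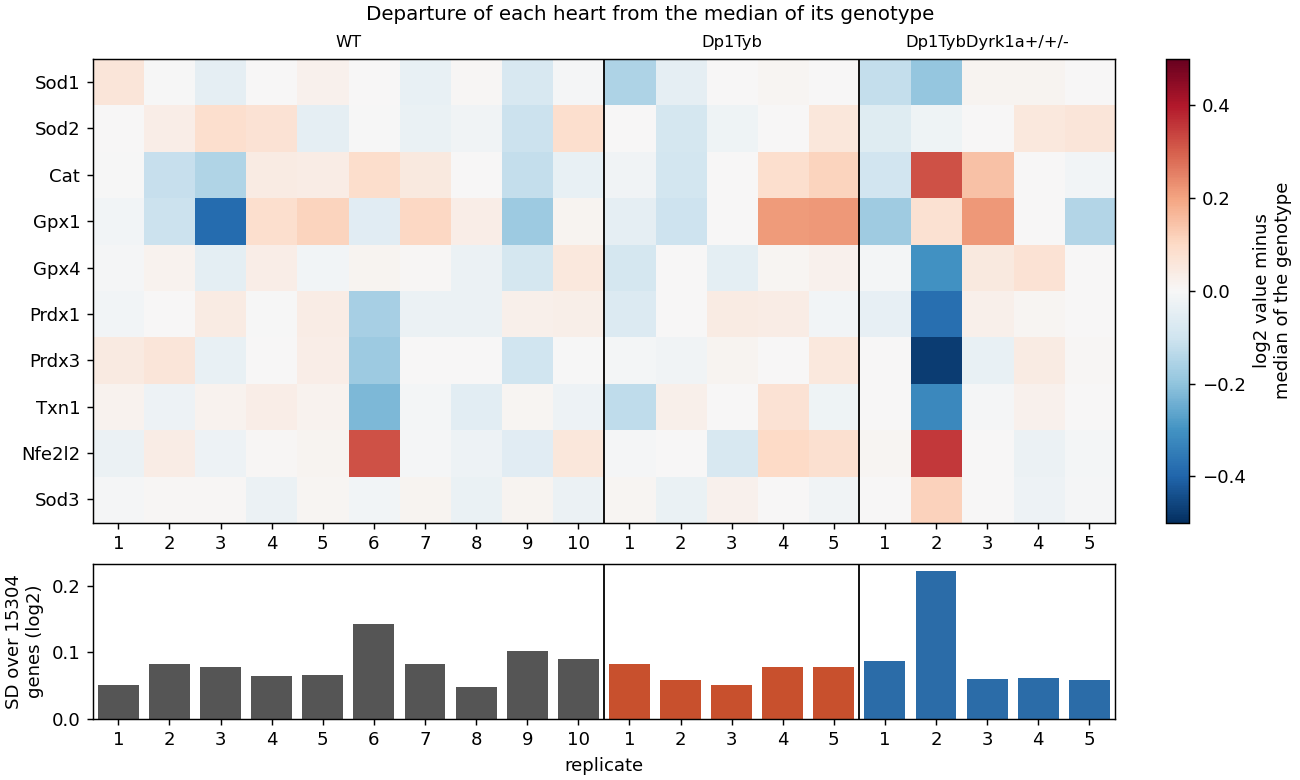
Upper panel, log2 value of each of the 10 genes in each heart minus the median of its genotype (colour scale in log2 units, hearts in columns by genotype and replicate); lower panel, SD of the same departures over all 15304 tested genes. Dp1TybDyrk1a+/+/- replicate 2 and WT replicate 6 have the tallest bars, 0.221 and 0.142, and share low Prdx1, Prdx3 and Txn1 with high Nfe2l2.

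Sod1 (ENSMUSG00000022982) was increased in both mutant groups by a similar amount and was, of the 9 tested genes, the 1 called with all hearts. The gene lies on the forward strand of chromosome 16 from 90220762 to 90226333 in GRCm38. Sod1 values in WT hearts ran from 11.41 to 11.56 with a median of 11.49. The 5 Dp1Tyb hearts had 11.75, 11.86, 11.91, 11.92 and 11.91, and the 5 Dp1TybDyrk1a+/+/- hearts had 11.83, 11.75, 11.96, 11.96 and 11.95. No mutant heart was as low as the highest WT heart, and the mutant groups overlapped each other. The group means were 11.49 ± 0.04 in WT (SD, n = 10), 11.87 ± 0.07 in Dp1Tyb (SD, n = 5) and 11.89 ± 0.09 in Dp1TybDyrk1a+/+/- (SD, n = 5).

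Compared to WT, Sod1 rose by a log2 fold change of 0.38 (SE 0.03, limma adjusted P-value 1.72e-07) in Dp1Tyb, a 1.30-fold increase with a 95% interval of 0.31 to 0.45 on the log2 scale. In Dp1TybDyrk1a+/+/- the rise was 0.40 (SE 0.03, limma adjusted P-value 6.41e-08), or 1.32-fold, with an interval of 0.33 to 0.47. The exact two-sided permutation test over hearts gave p = 0.000333 in both comparisons, the smallest value its 3003 regroupings allow. Of the 9 tested genes 1, Sod1, was called in each of these comparisons, beside 3.08% and 0.712% of all genes tested, and beside 75.8% and 72.6% of the 95 tested genes with 3 copies, of which 2.11% were called between the mutant groups. Between Dp1Tyb and Dp1TybDyrk1a+/+/- hearts the Sod1 difference was -0.02 (95% interval -0.10 to 0.06, limma adjusted P-value 0.805, exact permutation p = 0.667). Within lanes 3, 6 and 7 the Dp1Tyb minus WT difference was 0.42, 0.41 and 0.26, and that of Dp1TybDyrk1a+/+/- was 0.36, 0.44 and 0.40. The lowest Dp1Tyb heart, 11.75, is the single one in lane 7. Without the pair of hearts that stood apart the rises were 0.38 and 0.44.

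**Figure D2:**
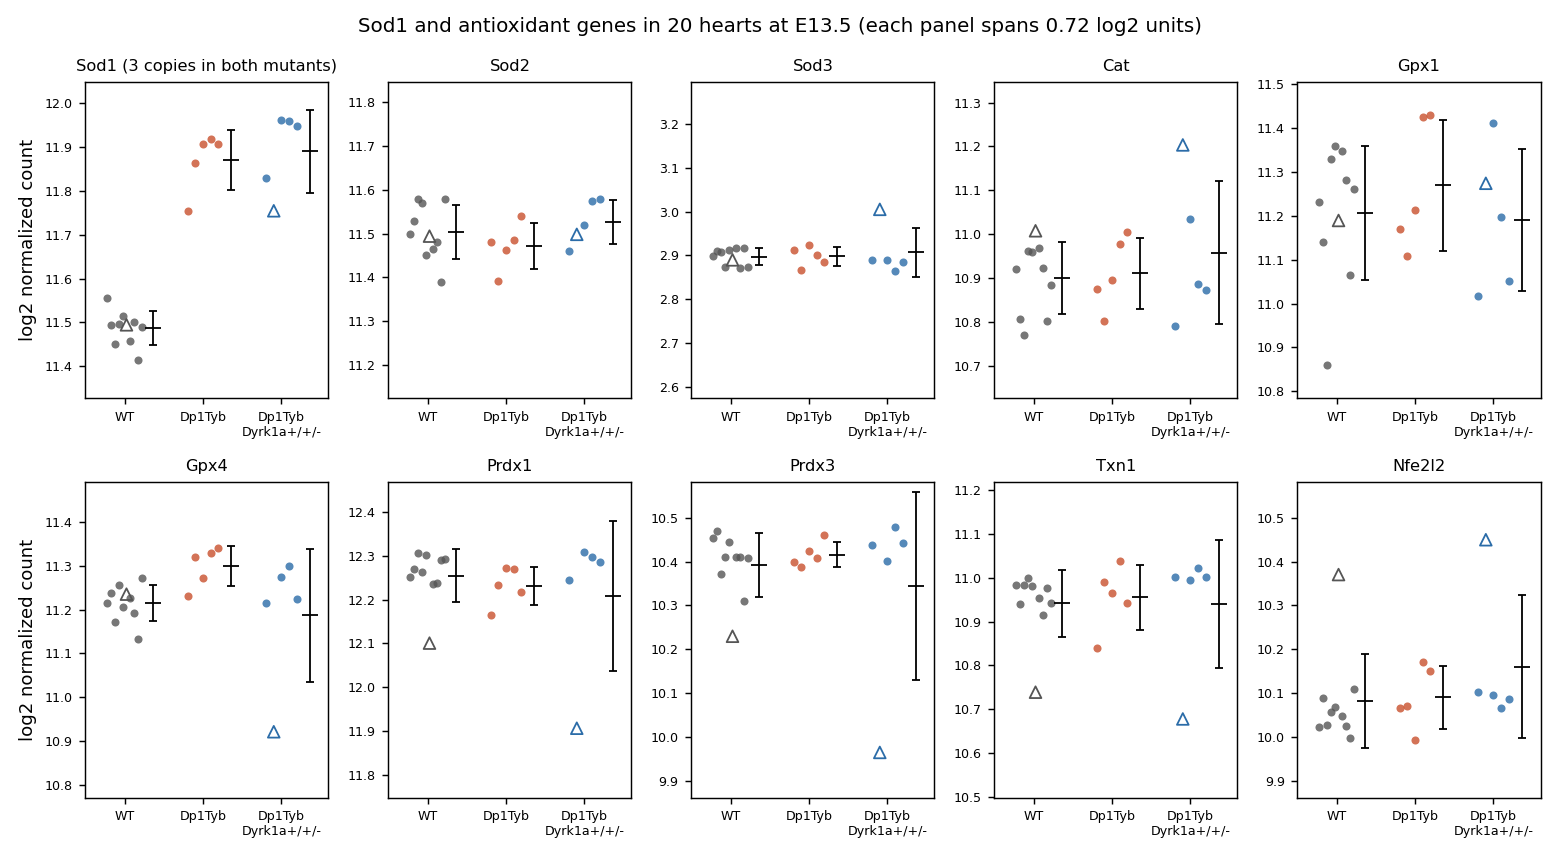
Log2 normalized count of each of the 10 genes in every heart by genotype, with the mean and SD of the group beside the points; open triangles mark WT replicate 6 and Dp1TybDyrk1a+/+/- replicate 2, and every panel spans the same log2 range. For Sod1 all mutant hearts lie at 11.75 or above and all WT hearts at 11.56 or below, and in the other panels the genotypes overlap.

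Among three-copy genes the Sod1 rise was in the upper part of the range. For 71 three-copy genes the mean log2 value was at least the log2 of 100 normalized counts. Among them Sod1 ranked 18 by its log2 fold change in Dp1Tyb and 17 in Dp1TybDyrk1a+/+/-, where the medians were 0.33 and 0.37. It ranked 10 of the 71 by its mean level. A ratio of 3 copies to 2 is 0.58 on the log2 scale, and the upper interval bounds of Sod1, 0.45 and 0.47, lay below it. The same held for the highest of the 71 genes, at 0.50 and 0.53, so 0 of them reached the copy ratio in either mutant on the deposited scale. What part the transformation of the values has in this was not tested.

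**Figure D3:**
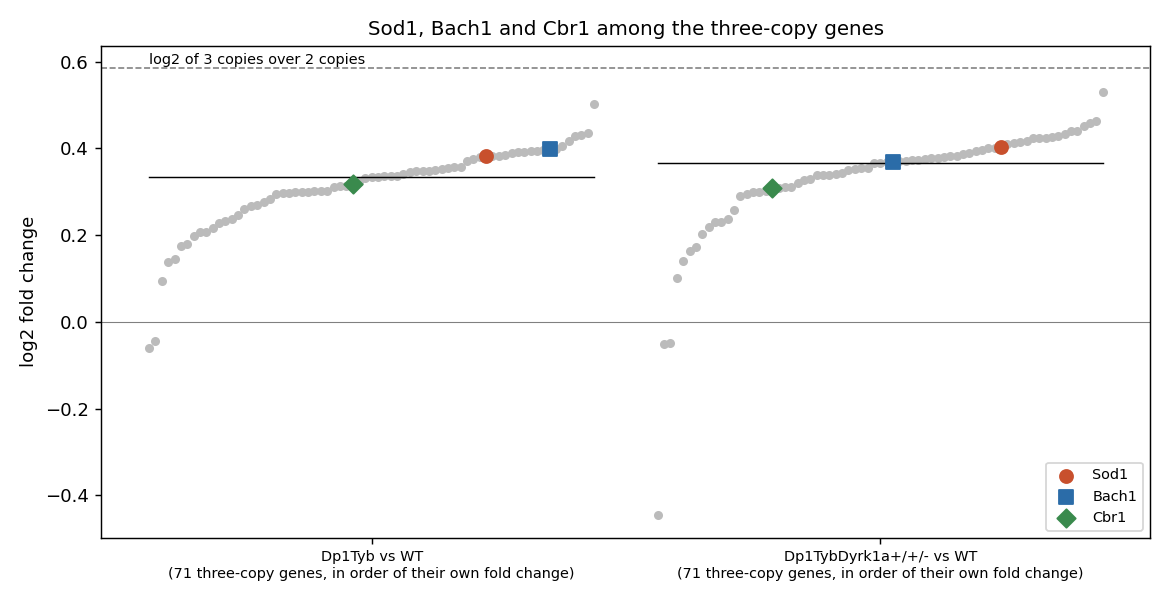
Log2 fold change compared to WT of 71 genes with 3 copies whose mean log2 value is at least the log2 of 100 normalized counts. Genes are ordered within each comparison, with Sod1, Bach1 and Cbr1 marked. The median is a solid line and the log2 of 3 copies over 2 a dashed line at 0.58. Sod1 lies above the median in both comparisons, at 0.38 and 0.40, and no point reaches the dashed line.

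Part of the longest Sod1 transcript overlaps a neighbour. In the GENCODE M39 annotation 4098 bases of the 5315-base canonical Sod1 transcript match Scaf4, a gene on the opposite strand that also has 3 copies in both mutants. The strand setting of the counting is not given in the sources used here, and without it reads from the overlap cannot be told apart. Scaf4 had a mean log2 value of 10.01, below that of Sod1 at 11.68, and its log2 fold changes were 0.23 (limma adjusted P-value 0.0307) in Dp1Tyb and 0.31 (limma adjusted P-value 0.00665) in Dp1TybDyrk1a+/+/-, where replicate 2 had a Scaf4 value of 10.56 and the other hearts 10.07 to 10.11.

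The 250 bases before each RefSeq start of Sod1 and of 8 further genes of the 10, 12 promoters of which 4 are those of Gpx4, were searched for the core of the antioxidant response element, the DNA element bound by NRF2 and BACH1 with small MAF proteins. The letters TGACNNNGC, read on both strands, were found in 3 of these 12 promoters, those of Sod1, Prdx1 and Nfe2l2, and in 10.2% of 32851 RefSeq promoters of the same length. The letters TGANTCA, which partly coincide with the former and are also the AP-1 site, were found in 1 of the 12, that of Prdx1, and in 6.75% of promoters. Sod3 had no entry. The 3 sequences are shown because they set the gene that rose beside a peroxiredoxin and the NRF2 gene itself, which hold the same core and were not called. They are those of RefSeq on GRCm38.p6, 5′ to 3′ on the strand of the gene and ending at the base before its start, with the matches in capitals.
Sod1 (chr16:90220512-90220761, forward strand): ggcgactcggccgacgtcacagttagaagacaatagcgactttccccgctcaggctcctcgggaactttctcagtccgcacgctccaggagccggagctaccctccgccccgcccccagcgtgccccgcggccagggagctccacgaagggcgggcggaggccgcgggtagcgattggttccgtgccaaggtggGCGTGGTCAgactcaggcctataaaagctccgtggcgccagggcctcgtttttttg
Prdx1 (chr4:116685349-116685598, forward strand): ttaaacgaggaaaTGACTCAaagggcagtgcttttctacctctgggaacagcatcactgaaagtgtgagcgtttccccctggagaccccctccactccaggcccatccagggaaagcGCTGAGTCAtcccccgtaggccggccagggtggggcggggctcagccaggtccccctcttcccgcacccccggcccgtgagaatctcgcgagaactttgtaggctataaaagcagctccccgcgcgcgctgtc
Nfe2l2 (chr2:75704664-75704913, reverse strand): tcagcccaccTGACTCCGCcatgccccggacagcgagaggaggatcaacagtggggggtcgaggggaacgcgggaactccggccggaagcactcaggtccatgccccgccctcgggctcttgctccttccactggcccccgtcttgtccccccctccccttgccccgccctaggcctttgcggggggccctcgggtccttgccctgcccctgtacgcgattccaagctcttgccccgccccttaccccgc
The match in Sod1 runs from position -56 to -48, counted with -1 as the last base shown, and is on the opposite strand. Prdx1 has a TGANTCA match from -237 to -231 and a combined match of both motifs from -133 to -125. The match in Nfe2l2 begins at -240. A match of letters is a description of the sequence and not evidence of binding in these hearts.

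The other superoxide dismutases did not pass the test. Sod2 (chromosome 17, 13007839 to 13018119) encodes the manganese enzyme of mitochondria. Sod2 ran from 11.39 to 11.58 in WT with a median of 11.50. Its 5 Dp1Tyb values were 11.48, 11.39, 11.46, 11.48 and 11.54, and its 5 Dp1TybDyrk1a+/+/- values were 11.46, 11.50, 11.52, 11.57 and 11.58. The 3 groups overlapped. The Sod2 log2 fold change was -0.03 (95% interval -0.10 to 0.03, limma adjusted P-value 0.695) in Dp1Tyb and 0.02 (interval -0.04 to 0.09, limma adjusted P-value 0.829) in Dp1TybDyrk1a+/+/-. These were the narrowest intervals of the 8 tested two-copy genes, with an SE of 0.03, so on this scale a rise of the size seen for Sod1 lay outside both. Between the mutant groups Sod2 differed by -0.05 (interval -0.13 to 0.02, limma adjusted P-value 0.423).

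Sod3 (chromosome 5, 52363804 to 52369738), which encodes the secreted enzyme, was below the filter in these hearts. Its values ran from 2.87 to 2.92 in WT and from 2.87 to 2.92 in Dp1Tyb. In Dp1TybDyrk1a+/+/- hearts they were 2.89, 3.01, 2.89, 2.86 and 2.88. It was not tested with limma, and exact permutation tests over hearts gave p = 0.958 and p = 0.693 for the differences from WT of 0.00054 and 0.0094 on the log2 scale.

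Of the enzymes among the 10 genes that remove peroxide, none was called compared to WT when all hearts were used, and Gpx4 came closest. Gpx4 (chromosome 10, 80047166 to 80056439) encodes the glutathione peroxidase that reduces lipid peroxides in membranes and thereby restrains ferroptosis. Gpx4 ran from 11.13 to 11.27 in WT with a median of 11.22. The Dp1Tyb hearts had 11.23, 11.32, 11.27, 11.33 and 11.34, and the Dp1TybDyrk1a+/+/- hearts had 11.22, 10.92, 11.27, 11.30 and 11.23. The Dp1Tyb hearts were shifted upwards, with 3 of 5 above every WT heart, and the lowest value of all 20 was that of Dp1TybDyrk1a+/+/- replicate 2. The share of all genes with such a shift was not counted.

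The Gpx4 log2 fold change in Dp1Tyb was 0.08 (SE 0.04, 95% interval -0.01 to 0.17, limma adjusted P-value 0.363), while the exact permutation test of this gene alone, 1 of 30 such unadjusted tests over the 10 genes, gave p = 0.00366. Without the pair of hearts that stood apart the same difference, 0.09 (SE 0.02), passed with a limma adjusted P-value of 0.0293, when 7.70% of all genes were called. Weights per heart gave 0.09 with an adjusted P-value of 0.0194, when 9.29% of all genes were called. With these weights Sod1 alone of the 9 tested genes was called in Dp1TybDyrk1a+/+/- versus WT, beside 2.23% of all genes, and 0 between the mutants, beside 8.15%. Compared to Dp1TybDyrk1a+/+/- hearts, Gpx4 in Dp1Tyb differed by 0.11 (interval 0.01 to 0.22, limma adjusted P-value 0.234, exact permutation p = 0.0873), and by 0.05 (adjusted P-value 0.371) without those hearts. In Dp1TybDyrk1a+/+/- versus WT Gpx4 was at -0.03 with all hearts and at 0.04 without them, and neither passed. Within lanes 3, 6 and 7 the Dp1Tyb minus WT difference was 0.12, 0.09 and -0.00024. Reads of Gpx4 may be shared with the near-identical copies Gm63662, Gpx4-ps1 and Gpx4-ps2, which match 777, 535 and 555 bases of its transcript and have no row of their own in the table.

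Gpx1 (chromosome 9, 108339080 to 108340342), the cytosolic glutathione peroxidase that is abundant in red cells, had the largest SD of the 10 genes over the WT hearts, 0.154. It ran from 10.86 to 11.36 in WT with a median of 11.25. Dp1Tyb hearts had Gpx1 values of 11.17, 11.11, 11.21, 11.43 and 11.43, and Dp1TybDyrk1a+/+/- hearts had 11.02, 11.27, 11.41, 11.20 and 11.05. The spread within each genotype was larger than any difference between genotypes. The Gpx1 log2 fold change was 0.06 (95% interval -0.10 to 0.22, limma adjusted P-value 0.775) in Dp1Tyb and -0.02 (interval -0.18 to 0.15, limma adjusted P-value 0.957) in Dp1TybDyrk1a+/+/-. These intervals were the widest of the 8 genes.

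Cat (chromosome 2, 103453904 to 103485153) encodes catalase, the peroxisomal enzyme. Cat ran from 10.77 to 11.01 in WT with a median of 10.92. Its values were 10.875, 10.801, 10.894, 10.978 and 11.004 in Dp1Tyb and 10.79, 11.20, 11.03, 10.89 and 10.87 in Dp1TybDyrk1a+/+/- hearts. All groups overlapped, and the highest of the 20 was again Dp1TybDyrk1a+/+/- replicate 2. The Cat log2 fold change was 0.01 (interval -0.10 to 0.12, limma adjusted P-value 0.954) in Dp1Tyb and 0.06 (interval -0.06 to 0.17, limma adjusted P-value 0.748) in Dp1TybDyrk1a+/+/-, which became 0.01 without the pair of hearts.

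Gpx1 and Cat varied most closely with the erythroid markers, and Sod1 less so. After the genotype means were subtracted, Pearson's r with the mean level of 11 erythroid markers over 20 hearts was 0.94 for Gpx1 and 0.63 for Cat, and over the 18 hearts without the pair that stood apart it was 0.96 and 0.92. Among the other tested genes r ran from 0.03 (Nfe2l2) to 0.45 (Sod1) over 20 hearts and from 0.01 (Prdx1) to 0.58 (Sod1) over 18. Gpx1 and Cat correlated with each other at 0.77 and 0.94 on the same hearts. These are descriptions across hearts that share their normalization and carry no test. The erythroid level itself ran from 10.93 to 12.75 in WT, 11.76 to 12.76 in Dp1Tyb and 11.53 to 12.69 in Dp1TybDyrk1a+/+/-, and 0 of its 11 tested genes were called. In whole hearts, more blood cells and more RNA per blood cell cannot be told apart. With the erythroid level as a covariate, the Sod1 calls were unaffected in both comparisons with WT.

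**Figure D4:**
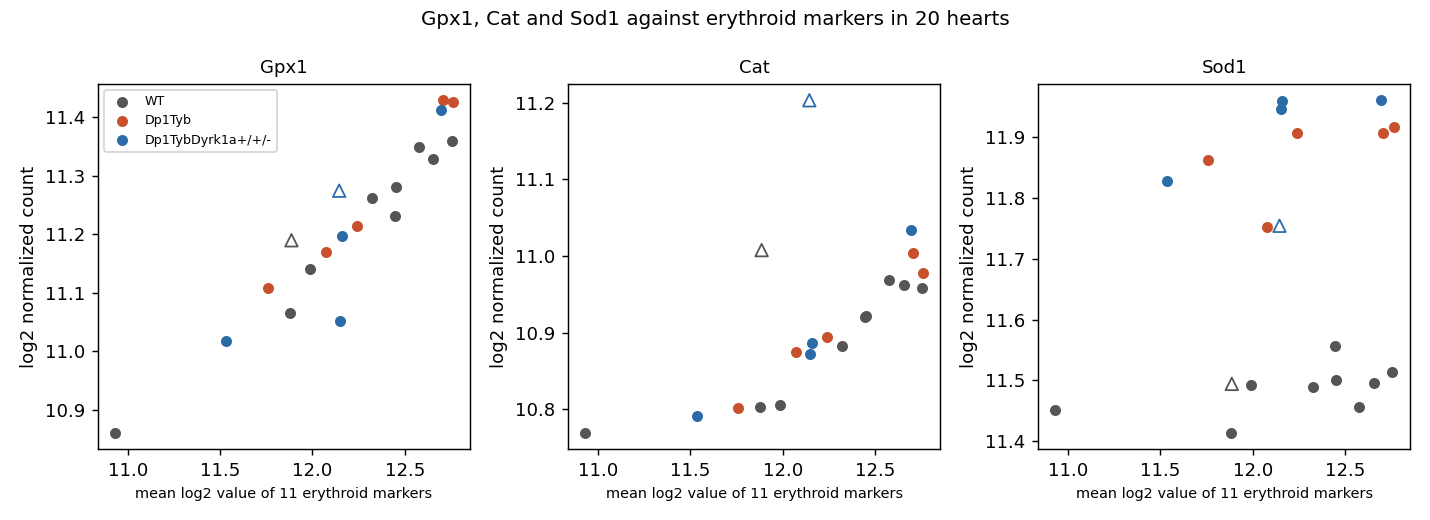
Log2 normalized count of Gpx1, Cat and Sod1 against the mean log2 value of 11 erythroid markers, with 1 point per heart coloured by genotype and open triangles for WT replicate 6 and Dp1TybDyrk1a+/+/- replicate 2. Gpx1 climbs with the markers in all genotypes, Cat does so except in the open triangles, and Sod1 separates WT from both mutants at every marker level.

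The peroxiredoxins and thioredoxin were not called in any comparison. Prdx1 (chromosome 4, 116685599 to 116700000), a cytosolic peroxiredoxin, had the highest log2 value of the 10 genes. It ran from 12.10 to 12.30 in WT with a median of 12.27. Prdx1 in the Dp1Tyb hearts was 12.16, 12.23, 12.27, 12.27 and 12.22, and in the Dp1TybDyrk1a+/+/- hearts 12.25, 11.91, 12.31, 12.30 and 12.29. The low values of 12.10 and 11.91 were those of the hearts that stood apart. The Prdx1 log2 fold change was -0.02 (95% interval -0.13 to 0.08, limma adjusted P-value 0.875) in Dp1Tyb and -0.05 (interval -0.15 to 0.06, limma adjusted P-value 0.778) in Dp1TybDyrk1a+/+/-, and without those hearts it was -0.04 (adjusted P-value 0.227) and 0.01 (adjusted P-value 0.821).

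Prdx3 (chromosome 19, 60864066 to 60874538) encodes the mitochondrial peroxiredoxin. It ran from 10.23 to 10.47 in WT with a median of 10.41. In Dp1Tyb hearts Prdx3 was 10.40, 10.39, 10.42, 10.41 and 10.46, and in Dp1TybDyrk1a+/+/- hearts 10.44, 9.96, 10.40, 10.48 and 10.44. The Dp1Tyb hearts lay within the WT range, and 9.96 was below it. The Prdx3 log2 fold change was 0.02 (interval -0.10 to 0.15, limma adjusted P-value 0.899) in Dp1Tyb and -0.05 (interval -0.17 to 0.08, limma adjusted P-value 0.814) in Dp1TybDyrk1a+/+/-, the second of which was 0.03 without the pair of hearts.

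Txn1 (chromosome 4, 57943373 to 57956411) encodes the cytosolic thioredoxin. It ran from 10.739 to 11.0001 in WT with a median of 10.965. In Dp1Tyb hearts Txn1 was 10.840, 10.990, 10.965, 11.038 and 10.943, and in Dp1TybDyrk1a+/+/- hearts 11.002, 10.678, 10.996, 11.023 and 11.002. The groups overlapped, and the lowest value of WT and of Dp1TybDyrk1a+/+/- was again that of the heart that stood apart. The Txn1 log2 fold change was 0.01 (interval -0.09 to 0.12, limma adjusted P-value 0.933) in Dp1Tyb and -0.0013 (interval -0.10 to 0.10, limma adjusted P-value 0.994) in Dp1TybDyrk1a+/+/-. The sign of both changed with the setting, that in Dp1Tyb to -0.0087 without the pair of hearts. None of the settings tried gave a call.

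Nfe2l2 (chromosome 2, 75675513 to 75704663), the gene of NRF2, was also not called. It ran from 9.998 to 10.37 in WT with a median of 10.05, and the next highest WT value below 10.37 was 10.11. Nfe2l2 values were 10.07, 10.07, 9.99, 10.17 and 10.15 in the Dp1Tyb hearts, and the Dp1TybDyrk1a+/+/- hearts had 10.10, 10.45, 10.10, 10.07 and 10.09. Both high values, 10.37 and 10.45, belonged to the hearts that stood apart. The Nfe2l2 log2 fold change was 0.01 (95% interval -0.11 to 0.13, limma adjusted P-value 0.964) in Dp1Tyb and 0.08 (interval -0.04 to 0.20, limma adjusted P-value 0.686) in Dp1TybDyrk1a+/+/-, and without those hearts both were 0.04 (adjusted P-values 0.368 and 0.512).

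Over the 8 tested two-copy genes, 0 were called by limma in each of the 3 comparisons, where 3.08%, 0.712% and 1.16% of all genes were called. At an unadjusted P-value under 0.05 the counts were 0, 0 and 1, the last being Gpx4, beside 15.6%, 9.64% and 18.5% of all genes. In the same order their median log2 fold change was 0.01, -0.01 and 0.02, beside medians of -0.0019, -0.0030 and 0.0028 over all genes. The 95% intervals of the 8 genes reached from -0.13 (Prdx1) to 0.22 (Gpx1) in Dp1Tyb versus WT and from -0.18 (Gpx1) to 0.20 (Nfe2l2) in Dp1TybDyrk1a+/+/- versus WT. Fold changes above 1.17 or below 0.884 thus lay outside the intervals of all 8 genes in both comparisons with WT.

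**Figure D5:**
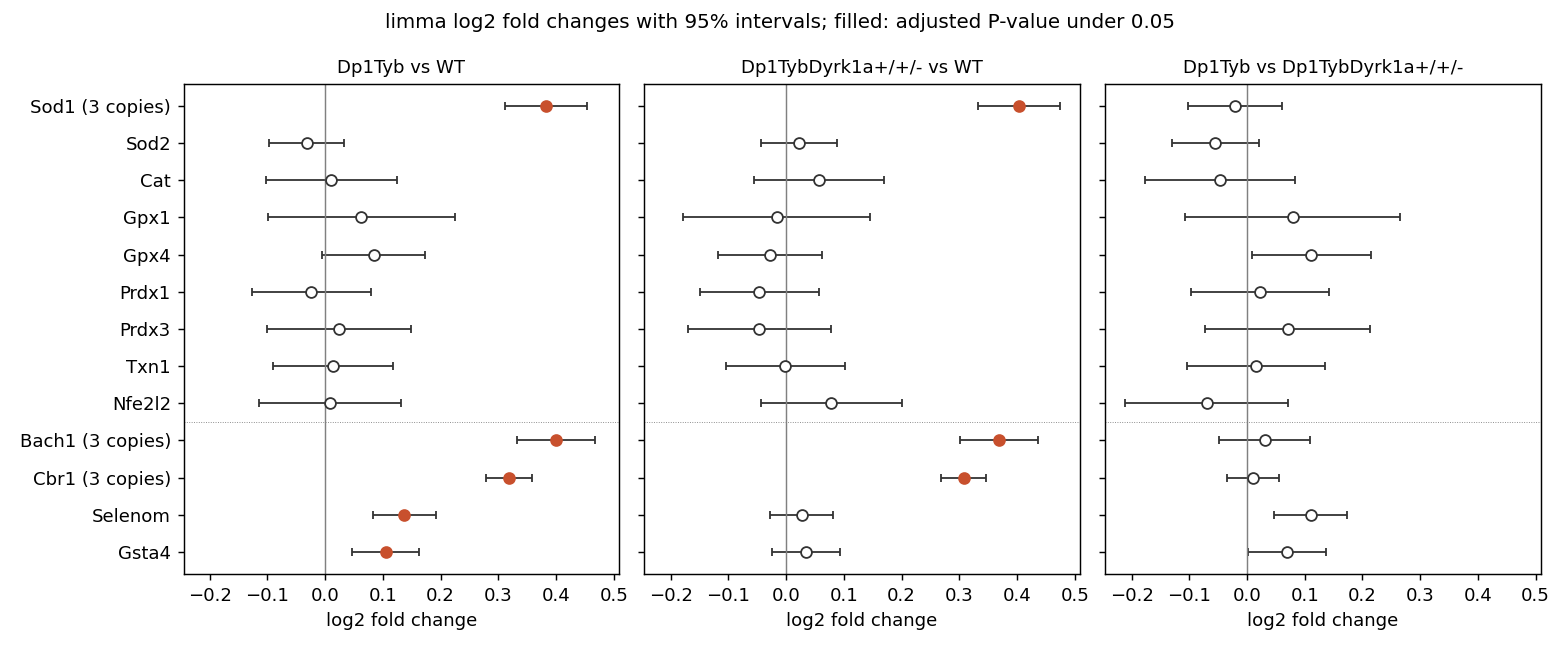
Log2 fold change (point) and 95% interval (bar) from limma in the 3 comparisons for the 9 tested genes of the 10 and, below the dotted line, the 4 pathway genes called; filled points have an adjusted P-value under 0.05 over 15304 genes. Sod1, Bach1 and Cbr1, with 3 copies, are filled in both comparisons with WT at 0.31 to 0.40, Selenom and Gsta4 only in Dp1Tyb versus WT, and no point is filled between the mutants.

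How the genes moved together within genotypes depended on the pair of hearts that stood apart. Over all 20 hearts, with genotype means subtracted, Pearson's r was 0.93 for Txn1 with Prdx1, 0.88 for Prdx3 with Prdx1 and -0.84 for Nfe2l2 with Prdx1. Over the remaining 18 hearts the same values were 0.66, -0.16 and 0.02. Sod1 correlated with Gpx4 at 0.76 over all hearts and at 0.64 over 18. These correlations are over hearts that share lanes and normalization and are given with no test.

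Genes whose values were most like those of Sod1 over the 20 hearts were all three-copy genes: Cct8, Atp5pf, Ifngr2, Atp5po and Sh3bgr, with r from 0.95 to 0.97. After genotype means were subtracted they were Cox7b, Uqcrh, Phb1, Sap18b and Hint1, with r of 0.87 to 0.90, and over the 18 hearts these 5 kept r of 0.80 to 0.88. Cox7b and Uqcrh encode subunits of respiratory chain complexes. For Nfe2l2 the nearest genes were Rab6a, Ddah1, Filip1l, Tmem123 and Snx3 on the log2 values, with r of 0.95 to 0.96. After genotype means were subtracted they were Tmem123, Ywhah, Arl8b, Ddah1 and Lsm12, with r of 0.95 to 0.97, which fell to 0.61 to 0.74 over the 18 hearts. With the mean of the cardiomyocyte markers Sod2 had an r of 0.77 over all hearts and 0.78 over 18, and Gpx4 of 0.64 and 0.76. With the endothelial and endocardial markers Sod2 had an r of 0.65 over all hearts and 0.73 over 18, and Gpx4 of 0.17 and 0.55. With the macrophage markers Sod2 had an r of -0.72 on both sets of hearts, and Gpx4 of -0.57 and -0.73. Nfe2l2 had an r of -0.02 over all hearts and 0.55 over 18 with the cardiomyocyte markers. On the same sets it had 0.47 and 0.53 with the endothelial and endocardial markers and -0.08 and -0.54 with the macrophage markers.

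A wider list of 106 genes of the antioxidant system was read beside the 10, of which 94 were tested. In Dp1Tyb versus WT 4 were called higher and 0 lower, when 1.81% of all genes were called higher and 1.27% lower, and 61 of the 94 had a log2 fold change above 0, with a median of 0.02. In Dp1TybDyrk1a+/+/- versus WT 2 were called higher and 0 lower, beside 0.627% and 0.0849% of all genes, with 38 above 0 and a median of -0.01. Between the mutant groups, where 0.425% of all genes were higher and 0.738% lower in Dp1Tyb, 0 were called by limma, and 17 (18.1%) had an unadjusted P-value under 0.05 beside 18.5% of all genes. Of the 94, 65 were above 0 there, with a median of 0.04. The medians over all genes were -0.0019, -0.0030 and 0.0028 in the 3 comparisons, and the share of all genes above 0 was not counted. The 2 called in both comparisons with WT, Bach1 and Cbr1, are three-copy genes of the same stretch as Sod1. The third listed three-copy gene, Cbr3, had a mean log2 value of 2.62 and was not tested.

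Bach1 (chromosome 16, 87698954 to 87733346), the repressor that competes with NRF2, ran from 10.43 to 10.64 in WT. Its Dp1Tyb values were 10.92, 10.94, 10.91, 10.94 and 10.98, and its Dp1TybDyrk1a+/+/- values were 10.95, 10.78, 10.99, 10.89 and 10.92. All mutant hearts lay above all WT hearts. Bach1 rose by 0.40 (SE 0.03, limma adjusted P-value 5.40e-08) in Dp1Tyb and by 0.37 (SE 0.03, limma adjusted P-value 1.22e-07) in Dp1TybDyrk1a+/+/-, with a difference of 0.03 between them (limma adjusted P-value 0.688). It ranked 8 and 34 of the 71 three-copy genes.

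Cbr1 (chromosome 16, 93607837 to 93610349) encodes a carbonyl reductase that clears lipid-derived carbonyls. It ran from 8.93 to 9.01 in WT, from 9.25 to 9.29 in Dp1Tyb and from 9.24 to 9.29 in Dp1TybDyrk1a+/+/-, again with no overlap with WT. Cbr1 rose by 0.32 (limma adjusted P-value 5.06e-10) and 0.31 (limma adjusted P-value 9.35e-10).

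The 2 two-copy genes called were Selenom and Gsta4, both in Dp1Tyb versus WT. Selenom encodes a selenoprotein of the endoplasmic reticulum with a thioredoxin-like fold. It ran from 8.61 to 8.75 in WT, the Dp1Tyb hearts had 8.78, 8.83, 8.83, 8.83 and 8.78, and the Dp1TybDyrk1a+/+/- hearts had 8.70, 8.60, 8.73, 8.71 and 8.77. The Dp1Tyb hearts lay above all hearts of both other groups, and the share of all genes that separate in this way was not counted. Selenom rose by 0.14 (SE 0.03, limma adjusted P-value 0.00452) in Dp1Tyb, and its difference in Dp1TybDyrk1a+/+/- was 0.03 (limma adjusted P-value 0.760). The difference between the mutant groups, 0.11 (95% interval 0.05 to 0.17), had a limma adjusted P-value of 0.0737 over all genes and was not called. Its exact permutation p was 0.00794, the smallest that 252 regroupings allow. That p is unadjusted, and Selenom was named because the same Dp1Tyb hearts were high compared to WT, so it is no independent support. The difference passed under 1 of the 11 other settings, weights per heart, with a limma adjusted P-value of 0.0281, when 8.15% of all genes were called.

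Gsta4, a glutathione S-transferase for products of lipid peroxidation, ran from 8.78 to 8.97 in WT and from 8.98 to 9.02 in Dp1Tyb. In Dp1TybDyrk1a+/+/- hearts it was 8.858, 8.915, 9.003, 8.928 and 8.974. Gsta4 rose by 0.10 (SE 0.03, limma adjusted P-value 0.0454) in Dp1Tyb and differed by 0.04 (limma adjusted P-value 0.703) in Dp1TybDyrk1a+/+/- and by 0.07 (limma adjusted P-value 0.259) between the mutants. Its call was lost with no filter on low values, quantile normalization, median centring, or lane or Xist as a covariate, and the limma adjusted P-value ran from 0.00693 to 0.0794 over the 11 other settings.

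By list, 0 of 9 tested superoxide and peroxide enzymes, 0 of 15 genes of the thioredoxin and glutaredoxin group, 1 of 16 of glutathione synthesis and use, 1 of 12 NRF2 regulators, 1 of 19 NRF2 target enzymes, 1 of 15 genes of selenoprotein synthesis and other selenoproteins and 0 of 8 sources of superoxide were called in Dp1Tyb versus WT. In that order they were Gsta4, the three-copy genes Bach1 and Cbr1, and Selenom, when 3.08% of all genes were called. Of the 19 NRF2 target enzymes, 15 lay above 0 in Dp1Tyb versus WT, with a median of 0.04. In Dp1TybDyrk1a+/+/- versus WT 7 did, with a median of -0.03, and the share of all genes above 0 was not counted. Keap1, the inhibitor of NRF2, and the NRF2 target genes Hmox1 and Nqo1, chosen after their values were seen, were not called. Hmox1 ran from 8.46 to 9.19 in WT, 8.76 to 9.15 in Dp1Tyb and 8.56 to 9.002 in Dp1TybDyrk1a+/+/-, and Nqo1 from 5.75 to 5.92, 5.73 to 5.90 and 5.74 to 5.81. The ranges overlapped for both genes.

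Without the pair of hearts that stood apart more pathway genes were called in both comparisons of Dp1Tyb. In Dp1Tyb versus WT 8 were then called higher and 2 lower, where 7.70% of all genes were called, and in Dp1Tyb versus Dp1TybDyrk1a+/+/- 0 higher and 4 lower, where 3.96% were called. In Dp1TybDyrk1a+/+/- versus WT the 2 called were again Bach1 and Cbr1, while the share of all genes was 1.39%. The added genes were named after their values were seen. In Dp1Tyb versus WT Gpx3 was at 0.21, Prdx5 at 0.07, Akr1a1 at 0.07 and Cyb5r3 at 0.06, and Gsr, the glutathione reductase, was at -0.07 and Trp53inp1 at -0.13. Compared to Dp1TybDyrk1a+/+/- hearts, Gsr was at -0.11, Cul3 at -0.07, Trp53inp1 at -0.18 and Selenot at -0.12. On the same hearts 3 of the 63 tested markers were called between the mutants and 1 in Dp1Tyb versus WT. Tnnt2 and Myl2, of 9 cardiomyocyte markers, were lower in Dp1Tyb than in Dp1TybDyrk1a+/+/- hearts by 0.21 and 0.23. Lyve1, of 7 macrophage markers, was higher by 0.29, and the others of that list were not called. Acta1 was higher in Dp1Tyb than in WT by 0.27. Compared to WT, Lyve1 in Dp1Tyb was at 0.11, uncalled, and the other macrophage markers ran from -0.05 (Cd68) to 0.003 (Mrc1). The part of cell composition in these differences was not tested.

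An order of the 10 genes by level per length could be given only in part, since transcript lengths differ within genes. With the shortest protein-coding transcript of each gene the WT level per kilobase was highest for Prdx1, at a log2 value of 12.14 ± 0.06 (SD, n = 10), then Txn1 at 12.10 ± 0.08, Sod1 at 11.68 ± 0.04, Gpx1 at 11.63 ± 0.15 and Gpx4 at 11.57 ± 0.04. Neighbours in this order differed by less than or about their spread, apart from the step between Txn1 and Sod1. With the longest transcript Gpx4 came first at 11.22 and Sod1, at 5315 bases, was seventh at 9.08. Nfe2l2 and Sod3 ranked 9 and 10 by either length.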

How the data were processed

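RNA of 20 E13.5 hearts (KAPA mRNA HyperPrep libraries, Illumina sequencing) was measured. The authors deposited 1 table of log2 normalized counts for 48795 genes, of which 19473 were at 0 in every heart. The submitters' processing notes name Trimmomatic 0.36, STAR 2.5.2a, RSEM 1.2.31, DESeq2 and the build GRCm38. The log2 transformation and the strand setting are not given in the sources used here. Columns given to no sample numbered 0.

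Linear models with a mean for each genotype were fitted to all 20 hearts in limma 3.58.1 (R 4.3.3, eBayes with trend on). Genes entered when their mean log2 value was at least the log2 of 10 normalized counts. P-values were adjusted by Benjamini-Hochberg with a threshold of 0.05. The authors used DESeq2, which needs counts. The labels do not say which WT hearts are littermates of which mutants, so all 10 entered. Mutants and controls were littermates by the study's methods, and since litters are not labelled no pairing entered the fit. No pair of hearts had identical values over all genes. Single genes were also compared by exact two-sided permutation over hearts. The fit was tested on simulated data. Alternatives were other filters, normalizations and limma settings, lane, Xist or the erythroid level as a covariate, weights per heart, and leaving out each heart. Leaving out WT replicate 6 and Dp1TybDyrk1a+/+/- replicate 2 together was chosen after seeing the data.

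Names came from GENCODE M39, and coordinates and promoters from RefSeq on GRCm38.p6. Near copies were found with blastn 2.17.0 (at least 95% identity over 50% of the transcript). Other steps used Python 3.11.15. The named genes were the 10 genes, pathway genes that were called or have 3 copies, and for Sod1 and Nfe2l2 the 5 genes with the highest r. The 10 genes and the gene lists were chosen with earlier results of these data known. Read totals were not analysed here, so no counting interval is given.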

Additional observations from a re-analysis of the deposited data

Results flagged for a closer look

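A single heart lay far from the others of its group for 6 of the 10 genes, by Dixon's criterion over 30 groups, where chance alone would give about 1 in 20. The 9 values came from the same pair of hearts, so the groups are not independent and this rate does not apply to their number. The same hearts departed over all 15304 tested genes, with SDs of 0.221 and 0.142. The share of all genes with such an outlier was not counted, so the 6 genes are not shown to differ from others in this. In Dp1TybDyrk1a+/+/- replicate 2 the log2 values were low for Gpx4 (10.92, next 11.22), Prdx1 (11.91, next 12.25), Prdx3 (9.96, next 10.40) and Txn1 (10.68, next 10.996), and high for Nfe2l2 (10.45, next 10.10) and Sod3 (3.01, next 2.89). In WT replicate 6 they were low for Prdx1 (12.10, next 12.24) and Txn1 (10.74, next 10.91) and high for Nfe2l2 (10.37, next 10.11). The rank correlation over 15167 genes with a transcript length between the departure of the heart and transcript length was 0.25 and -0.03 in these hearts and -0.22 to 0.28 in the other 18. The cause was not tested.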

How the results depend on the processing

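Sod1 stayed called in both comparisons with WT under all 11 other settings, at 0.38 to 0.41 in Dp1Tyb and 0.37 to 0.44 in Dp1TybDyrk1a+/+/-, and when each heart was left out (0.37 to 0.41 and 0.39 to 0.44). Its difference between the mutants was 0.0241 with quantile normalization, 0.0130 with the Xist value as a covariate and -0.0544 to 0.00861 over left-out hearts, above 0 only without Dp1Tyb replicate 1. Without the pair of hearts that stood apart 2 of the 10 genes and 10 pathway genes were called in Dp1Tyb versus WT and 4 pathway genes between the mutants, when 7.70% and 3.96% of all genes were called. With weights per heart these counts were 2, 11 and 7, when 9.29% and 8.15% of all genes were called in these comparisons. Of the 4 pathway genes called in Dp1Tyb versus WT, Gsta4 was lost under 5 settings, and Bach1, Cbr1 and Selenom stayed called under all 11. Between the mutants 2 pathway genes were called when the mean log2 value had to reach the log2 of 100 normalized counts or with median centring. With the erythroid level as a covariate 1 was called. Of all genes tested under these settings 273, 225 and 145 were called, beside 178 in the main fit. Leaving out single hearts gave 1 to 2, 1 to 1 and 0 to 0 of the 10 genes and 3 to 9, 2 to 3 and 0 to 2 pathway genes in the 3 comparisons. The counts over all 15304 genes moved as well, over 266 to 959, 88 to 158 and 30 to 404, beside 471, 109 and 178 with all hearts. The highest counts, 2 of the 10 genes and 9 and 2 pathway genes, came without Dp1TybDyrk1a+/+/- replicate 2, and 1 pathway gene was called between the mutants without WT replicate 6, 9 or 10 or Dp1TybDyrk1a+/+/- replicate 1. Gpx4 in Dp1Tyb versus WT was called without Dp1TybDyrk1a+/+/- replicate 2 (adjusted P-value 0.0376), and its adjusted P-value ran from 0.0194 to 0.553 over the settings. With no filter on low values Sod3 could be fitted and was not called (adjusted P-values 0.991, 0.898 and 0.918). The cause of these shifts was not tested.

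Uncalled log2 fold changes turned as follows. In Dp1TybDyrk1a+/+/- versus WT Sod2 was -0.000628 with quantile normalization, and Txn1 was 0.00597 with median centring and 0.0284 with lane as a covariate. Weights per heart gave Gpx4 0.0393, Prdx1 0.0159, Prdx3 0.0190 and Txn1 0.0420, and leaving out the pair of hearts gave 0.0408, 0.0123, 0.0302 and 0.0418. Between the mutants Txn1 was -0.0146 with lane as a covariate, and Prdx1, Prdx3 and Txn1 were -0.0401, -0.0166 and -0.0327 with weights and -0.0533, -0.0243 and -0.0505 without the pair. Cat was 0.00422 with Xist as a covariate and 0.0148 without the pair, and Nfe2l2 was 0.00286 without it. In Dp1Tyb versus WT Cat was -0.00584 with the erythroid level as a covariate and Txn1 was -0.00868 without the pair. Over left-out hearts the ranges that crossed 0 were, in Dp1Tyb versus WT, Cat -0.0128 to 0.0378, Nfe2l2 -0.0116 to 0.0407 and Txn1 -0.00868 to 0.0427. In Dp1TybDyrk1a+/+/- versus WT they were Cat -0.00430 to 0.0988, Gpx1 -0.0716 to 0.0270, Gpx4 -0.0559 to 0.0385, Prdx1 -0.0713 to 0.0294, Prdx3 -0.0800 to 0.0483 and Txn1 -0.0238 to 0.0643. Between the mutants they were Cat -0.0882 to 0.0148, Nfe2l2 -0.0932 to 0.00286, Prdx1 -0.0533 to 0.0474, Prdx3 -0.0243 to 0.104 and Txn1 -0.0505 to 0.0439. No paired analysis was possible because the labels give neither litters nor replicate numbers, and the numbers used here only name the hearts.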
